A study of Mus musculus with 6 samples.

Results

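The nuclear genes that encode the subunits of oxidative phosphorylation were followed across bulk RNA sequencing of CD8+ regulatory-like T cells (CD8+ TRLs). The members were taken from the deposited count table by symbol, as every gene named in the Nduf, Sdh, Uqcr, Cox4 to Cox8 and Atp5 series, and a gene with under 10 counts in each of the 6 libraries was dropped. Of 84 matching symbols 79 remained, out of 24394 gene symbols in the table. They comprised 34 subunits of complex I, 4 of complex II, 8 of complex III, 16 of complex IV and 17 genes of the ATP synthase series. Ndufa4, whose product is counted as a subunit of complex IV in spite of its name, was placed there. Atp5s and Atp5sl carry an ATP synthase name but do not encode subunits of the enzyme. They stay among the 17 in all counts, shares and medians below, and their values are also given apart.

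The 3 groups of 2 libraries compared were each made from 500 to 1000 cells sorted as CD8+CD122+CD49dlo. All mice were WT, 9 weeks old and labelled as C57BL/6NCrl, whereas the study's methods name C57BL/6J and male mice. The sham blood libraries came from blood taken 3 days after sham surgery. The tMCAO blood and tMCAO brain libraries came from blood and brain taken 3 days after 60 min of transient middle cerebral artery occlusion (tMCAO), a model of ischemic stroke with reperfusion. The sources do not say whether a library came from 1 mouse or from a pool, so the p-values below measure the spread between these libraries, which may be technical.

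Oxidative phosphorylation takes place on the inner mitochondrial membrane. Complex I oxidizes NADH, complex II oxidizes succinate as part of the citric acid cycle, complex III passes electrons to cytochrome c, and complex IV reduces oxygen, while the ATP synthase makes ATP from the proton gradient that complexes I, III and IV build. The core catalytic subunits of complexes I, III and IV and part of the membrane sector of the ATP synthase are encoded by mitochondrial DNA, and no mitochondrially encoded gene is in the count table used here. Several subunits of complex IV exist as isoforms, of which some are known from heart, skeletal muscle, lung or testis and their partners from nearly all tissues.

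The libraries held 13793081 to 17149924 counts on genes. The brain libraries went against their label as T cells. Of 18 tested T cell identity genes, including Cd3d, Cd3e, Cd8a and Cd8b1, all 18 were lower in brain than in either blood group by edgeR's quasi-likelihood test, and their summed level was 90.8 and 65.0 CPM (counts scaled to the effective library size) in brain against 11510 to 17130 CPM in the 4 blood libraries. All 18 still had counts in every library. All 17 microglia and macrophage markers were higher in brain than in sham blood, with summed levels of 87700 and 102900 CPM against 251 to 469 CPM in blood, where 3 to 10 of the 17 were at 0 in a library, C1qc, Tmem119 and Fcrls among them in sham blood. The 9 monocyte markers summed to 24230 and 18830 CPM in brain and 1168 to 3409 CPM in blood. Lyz2 alone had 17450 and 12420 CPM of the brain sums. Of these 9 markers, 7 were higher and 1, Ly6c2, was lower in brain than in sham blood by the same edgeR test. The 6 neuron markers summed to 1.20 and 7.13 CPM in brain, with Syt1 and Map2 at 0. The 9 B cell markers summed to 673 and 1182 CPM in sham blood and to 30.5 and 87.7 CPM in tMCAO blood. The part of these other cells in the differences below was not tested. The comparisons with brain are therefore comparisons of the libraries labelled brain. In bulk RNA, fewer cells of a type and less RNA per cell cannot be told apart. Within tMCAO blood the replicates also stood apart: the SD of the log2 ratio between replicates over all tested genes was 1.27 there, 0.819 in sham blood and 0.807 in brain.

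The members together took 1.95% and 1.87% of gene counts in sham blood 1 and 2, 1.94% and 2.53% in tMCAO blood 1 and 2, and 1.46% and 1.34% in brain 1 and 2. Both brain libraries lay below all blood libraries, and tMCAO blood 2 lay above the rest. Complex I took 30.2% to 37.0% of the members' counts, the ATP synthase series 28.6% to 35.0%, complex IV 16.8% to 18.9%, complex III 11.3% to 12.2% and complex II 5.59% to 7.85%. The highest share of complex I and the lowest shares of complex II and the ATP synthase series were in tMCAO blood 2, and the highest share of complex II was in brain 2.

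**Figure D1:**
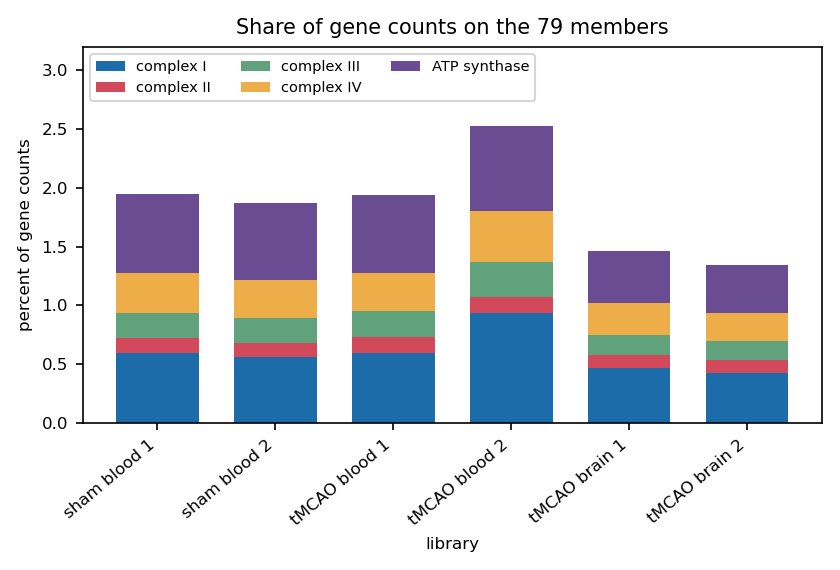
Share of gene counts on the 79 members in each library, in percent, stacked by complex. The bars reach 1.34% and 1.46% in the 2 brain libraries, 1.87% to 1.95% in 3 of the blood libraries and 2.53% in tMCAO blood 2.

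Levels of different genes were compared per length, as FPKM, the fragment density per transcript length and library size. The median over members was 354 to 769 FPKM in complex IV across the 6 libraries, 297 to 635 FPKM in the ATP synthase series and 338 to 627 FPKM in complex III, and these 3 changed order between libraries. Complex I, at 224 to 430 FPKM, was above complex II, at 179 to 244 FPKM, in each library. Among members with an FPKM in every library, the leading member of each complex by mean was Atp5j (1571 FPKM), which encodes coupling factor 6 of the peripheral stalk, Ndufa3 (1252 FPKM), an accessory subunit of complex I, Ndufa4 (1152 FPKM), Uqcr11 (947 FPKM), a small subunit of complex III, and Sdhb (456 FPKM), the iron-sulfur subunit of complex II. The deposited FPKM table joins some genes with a neighbour on 1 line, which left 31 of 34, 4 of 4, 7 of 8, 15 of 16 and 15 of 17 members of complexes I to IV and the ATP synthase series with an FPKM of their own in every library. Uqcrb of complex III, joined with Mterf3 in tMCAO blood 1, had 806 to 1232 FPKM in the other 5 libraries, around the level of Uqcr11 (589 to 1580 FPKM).

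**Figure D2:**
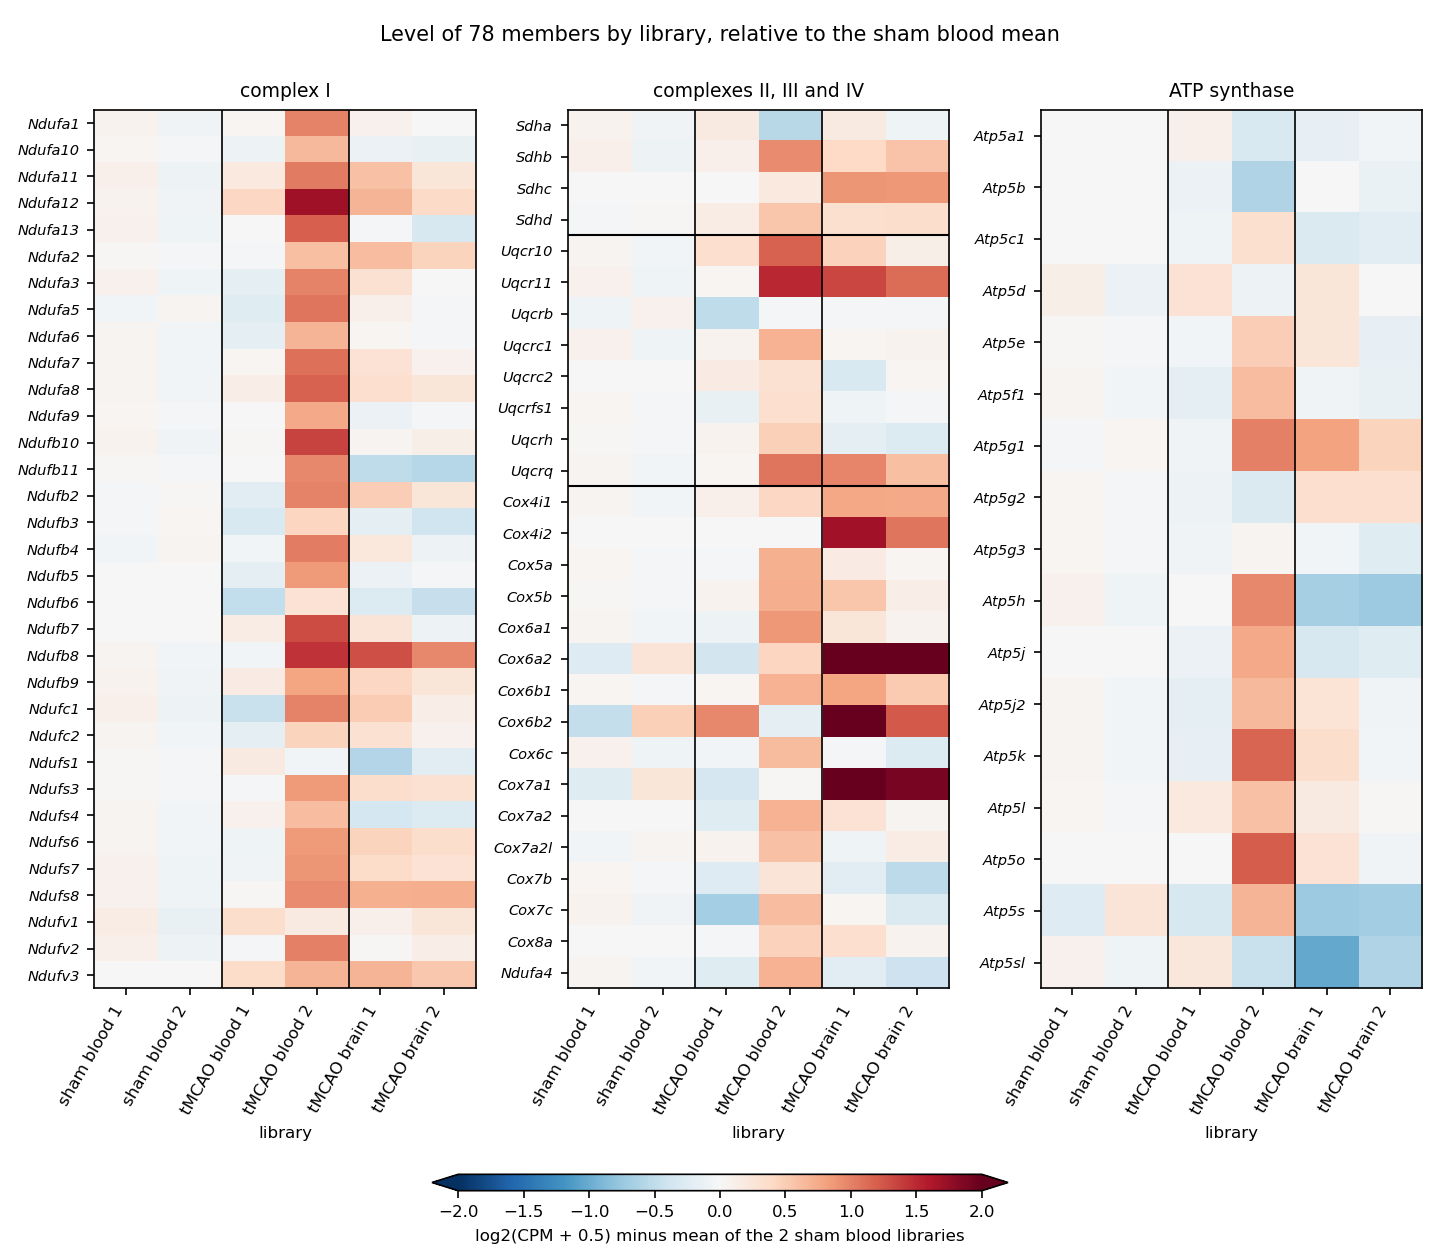
Heat map of 78 of the 79 members in rows and the 6 libraries in columns, showing log2(CPM + 0.5) minus the mean of the 2 sham blood libraries, with colours ending at 2 in either direction. The column of tMCAO blood 2 is red for most members of every complex, while the brain columns are deep red at Cox6a2 and Cox7a1 and, in brain 1, at Cox6b2 and Cox4i2.

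The first comparison asked what stroke did to circulating CD8+ TRLs. No member passed the test between tMCAO blood and sham blood: 0 of 78 tested members were higher and 0 were lower at an adjusted p under 0.05, where the background over all 12424 tested genes was 0% higher and 0.821% lower. At an unadjusted p under 0.05, edgeR's quasi-likelihood test gave 2 members, Ndufa12 and Uqcr10, against a background of 7.81%, and DESeq2 at an adjusted p under 0.05 also gave 0. The median log2 difference over the members was 0.39, with 69 of 78 above 0, beside a median of 0.03 over all tested genes. By complex the median was 0.51 in complex I, 0.35 in complex III, 0.30 in complex IV and 0.24 both in complex II and in the ATP synthase series.

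That median rested on tMCAO blood 2. Without it the median was -0.06, and without tMCAO blood 1 it was 0.69, with 28 of 79 members then called higher by edgeR's quasi-likelihood test at an adjusted p under 0.05, beside 2.85% of all genes tested. Of the members, 68 of 78 had a higher CPM in tMCAO blood 2 than in tMCAO blood 1, with a median log2 ratio of 0.82, while over 10531 tested genes with a known length the median ratio was -0.03. In sham blood and in brain the median ratio of replicate 2 to 1 over the members was -0.08 and -0.15.

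Ndufa12, an accessory subunit of complex I, had the smallest p in blood. Its level was 98.4 and 88.9 in sham blood, 125 and 303 in tMCAO blood and 149 and 122 CPM in brain. Both tMCAO blood libraries lay above both sham libraries, and the gap within tMCAO blood was wider than the gap between the groups. The log2 difference between tMCAO and sham blood was 1.19 ± 0.42 (SE, n = 2 per group) with an adjusted p of 0.509 by edgeR's quasi-likelihood test. The next in order showed the same spread. Uqcr10, a small subunit of complex III, stood at 131 and 122 in sham blood and 160 and 286 CPM in tMCAO blood (log2 difference 0.82, adjusted p of 0.615 by the same edgeR test). Ndufv3, an accessory subunit of the NADH-oxidizing arm of complex I, was less spread within tMCAO blood, at 94.2 and 94.2 CPM against 121 and 152 CPM (log2 difference 0.53, adjusted p of 0.672 by the edgeR test). Ndufb7, an accessory subunit of the membrane arm, stood at 139 and 139 CPM against 155 and 346 CPM (log2 difference 0.85, adjusted p of 0.672 by the edgeR test). In 19 members both tMCAO blood libraries were above both sham libraries and in 2 both were below, where the background over all tested genes was 17% and 18.6%.

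The gap between the tMCAO blood replicates differed with transcript length. Among 30 members with transcripts under 700 bases the median log2 ratio of tMCAO blood 2 to 1 was 0.94 and 29 were higher in tMCAO blood 2. It was 0.84 among 23 members of 700 to 1200 bases (22 higher) and 0.49 among 25 longer members (17 higher). Over all tested genes the same classes had medians of 0.59, 0.66 and -0.12. Spearman's rho between the ratio and transcript length was -0.31 across the 78 members and -0.24 across 10531 genes. Between the brain replicates it was 0.45 across the members and -0.03 across 11434 genes, and in sham blood 0.02 and 0.05. These values are descriptions because the genes share their libraries. In brain the member medians by class were -0.22, -0.08 and 0.02, with 1, 7 and 13 members higher in brain 2. Of the 10 members with a lower CPM in tMCAO blood 2, 8 had transcripts over 1200 bases, Atp5b and Sdha among them. Atp5b, the catalytic beta subunit of the ATP synthase, was at 1013 CPM in tMCAO blood 1 and 726 CPM in tMCAO blood 2, beside 1106 and 1092 CPM in sham blood. Sdha, the flavoprotein of complex II, was at 275 and 165 CPM in tMCAO blood and at 256 and 232 CPM in sham blood. The part of transcript length in the members' levels in blood or brain was not tested.

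**Figure D3:**
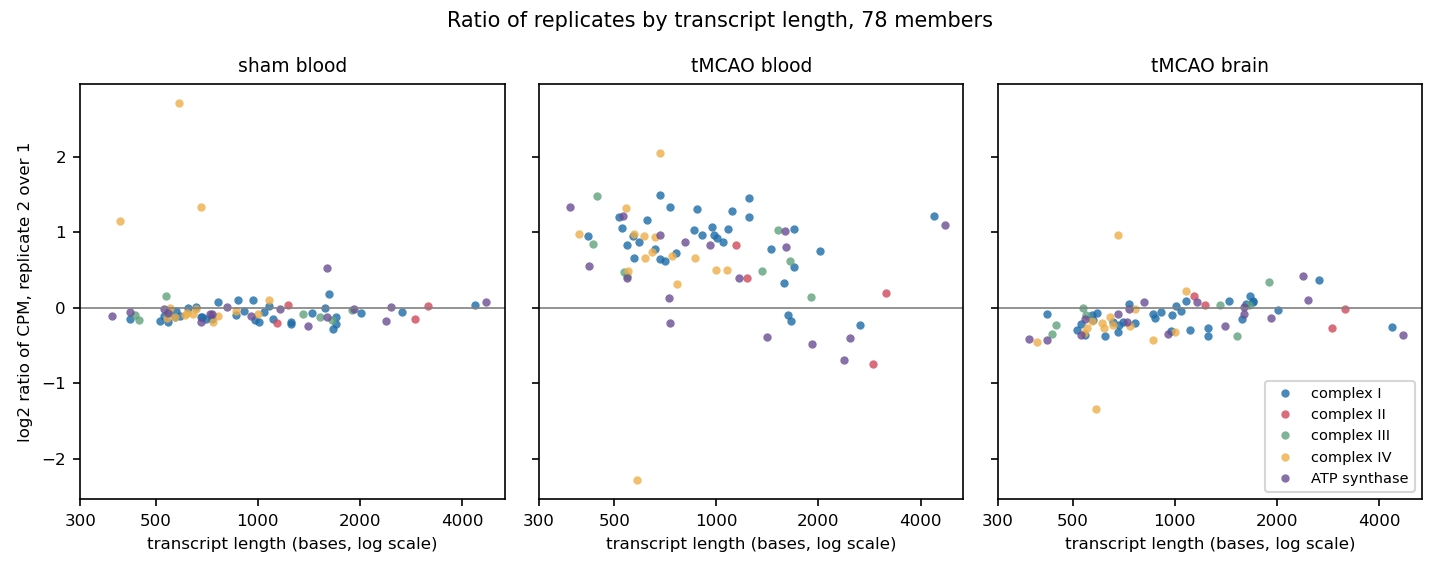
Log2 ratio of CPM in replicate 2 over replicate 1 (vertical axis) against transcript length in bases on a log axis, for the 78 tested members in each group, coloured by complex. In sham blood and brain most points lie near 0, with brain medians of -0.22 under 700 bases and 0.02 over 1200 bases. In tMCAO blood the median is 0.82. There the points under 700 bases, at a median of 0.94, lie above those over 1200 bases, at 0.49.

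The second comparison set the libraries labelled brain against sham blood. Of the members Sdhc and Cox6a2 were higher and 0 were lower at an adjusted p under 0.05 by edgeR's quasi-likelihood test, thus 2 of 78 beside a background of 19.2% of all tested genes higher and 12.6% lower. With a fold change over 2 as well, 1 member was higher (Cox6a2) and 0 were lower, beside a background of 18.7% and 11.8%. At an unadjusted p under 0.05 the test gave 7 members (background 43.2%). DESeq2 on all samples gave 5 higher and 0 lower (background 17.1% and 12.6%), and with library size alone in place of TMM scaling the split was 1 higher and 14 lower (background 13.2% and 23.7%). That scaling moved the median log2 difference of all tested genes from 0.13 to -0.44 and that of the members from 0.11 to -0.46. The counts also turned on single libraries: leaving out tMCAO blood 1 gave 13 higher and 3 lower (background 26.3% and 18.6%), leaving out tMCAO blood 2 gave 10 and 4 (24.4% and 21%), and leaving out any 1 of the sham blood or brain libraries gave 0 and 0 (7.31% to 8.74% and 5.33% to 6.26%).

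Most members lay close to their level in sham blood. Of the 78, 73 differed by less than 2-fold, 93.6%, against 50.6% of all tested genes. Among genes with a mean of at least 50 CPM, 71 of 73 members (97.3%) and 2327 of 3820 genes (60.9%) were within 2-fold. The median size of the log2 difference was 0.27 over the members and 0.98 over all tested genes. In the same class of level 20.6% of genes were called higher and 18.4% lower, and 1 and 0 members were. Both brain libraries were above both sham libraries in 34 members and below in 19, where the background was 43.1% and 35.8%. By complex these counts were 16 above and 7 below of 34 in complex I, 3 and 0 of 4 in complex II, 3 and 2 of 8 in complex III, 10 and 2 of 15 in complex IV and 2 and 8 of 17 in the ATP synthase series. Atp5s and Atp5sl, which do not encode subunits, were among these 8. The median log2 difference by complex ran from 0.41 in complex II and 0.18 in complex IV to 0.01 in complex III and -0.07 in the ATP synthase series.

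**Figure D4:**
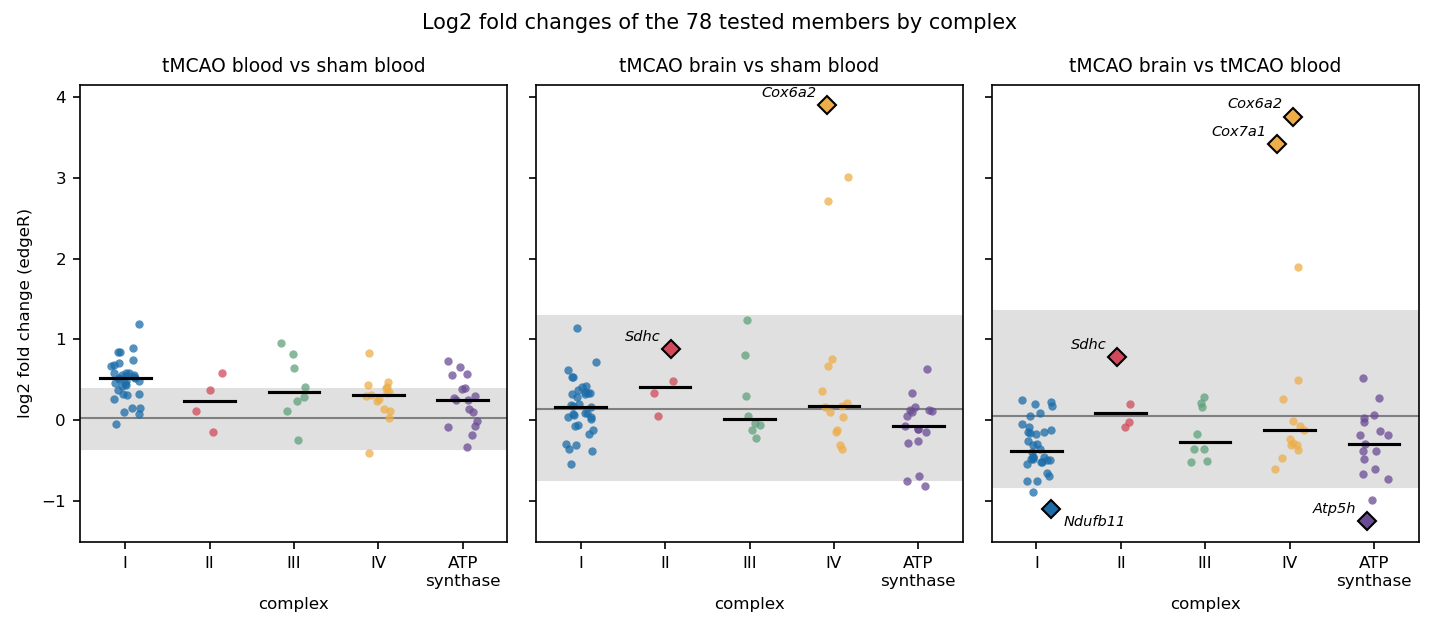
Log2 fold change of each tested member by complex for the 3 comparisons, with a black bar at the median of the complex, a grey line at the median of all 12424 tested genes and a grey band over their middle 50%. Diamonds mark members with an adjusted p under 0.05: 0 between tMCAO blood and sham blood, 2 between brain and sham blood, and 5 between brain and tMCAO blood.

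Sdhc encodes the large membrane anchor of complex II, which binds heme and ubiquinone together with Sdhd. Its level was 115 and 117 in sham blood, 116 and 133 in tMCAO blood and 214 and 213 CPM in brain. The brain libraries lay above all blood libraries, and each pair was close. The log2 difference was 0.88 ± 0.23 (SE, n = 2 per group, adjusted p of 0.0275 by edgeR's quasi-likelihood test) against sham blood and 0.77 ± 0.23 (adjusted p of 0.0385 by the same test) against tMCAO blood. Both calls were lost without either sham blood or either brain library, with adjusted p of 0.133 to 0.230 for edgeR fits that left out 1 of these 4 libraries, while the log2 difference stayed between 0.67 and 0.89. With library size alone it was 0.31 against sham blood (adjusted p of 0.275 by the edgeR test). Over 18 alternative settings, these fits among them, the call was lost in 9 against sham blood and in 12 against tMCAO blood. The lowest log2 difference over these settings was 0.31 against sham blood and 0.29 against tMCAO blood. The other subunits of complex II did not pass. Sdhb stood at 377 and 329 in sham blood and 467 and 522 CPM in brain, Sdhd at 296 and 305 CPM against 374 and 385 CPM, and Sdha at 256 and 232 CPM against 276 and 230 CPM.

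The 2 members next in order of p belonged to complex IV and the following ones to complexes III and I. Cox4i1, the broadly expressed form of the subunit that carries the allosteric ATP site, was at 410 and 381 in sham blood, 423 and 528 in tMCAO blood and 675 and 667 CPM in brain, a log2 difference from sham blood of 0.76 (adjusted p of 0.0586 by edgeR's quasi-likelihood test). It shares 154 bases of exon with Emc8 on the opposite strand, which stood at 35.9 and 26.1 in sham blood and 54.2 and 50.7 CPM in brain. Uqcr11 was at 171 and 152 in sham blood, 165 and 460 in tMCAO blood and 409 and 350 CPM in brain (log2 difference 1.24, adjusted p of 0.0824 by the edgeR test). A processed copy elsewhere in the genome is near-identical to 38.4% of its transcript. Ndufb8, an accessory subunit of the membrane arm of complex I, followed the same order, at 241 and 221, 223 and 631, and 564 and 452 CPM (log2 difference 1.14, adjusted p of 0.109 by the edgeR test), and overlaps a read-through transcript on its own strand. In both genes tMCAO blood 2 was as high as brain and tMCAO blood 1 as low as sham blood.

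Ndufv3 was at 152 and 137 CPM in brain (log2 difference from sham blood 0.61, adjusted p of 0.0985 by edgeR's quasi-likelihood test), close to its level in tMCAO blood.

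The third comparison set brain against tMCAO blood, both taken after stroke; it shares its brain libraries with the second. At an adjusted p under 0.05, 3 members were higher (Sdhc, Cox6a2 and Cox7a1) and 2 were lower (Atp5h and Ndufb11), against a background of 20.9% higher and 14.2% lower. With a fold change over 2 as well, 2 were higher and 2 lower (background 20.4% and 13.2%). DESeq2 on all samples also gave 3 and 2 (background 18.6% and 13.9%), whereas with library size alone the split was 1 higher and 34 lower (background 15.9% and 25.6%). Leaving out tMCAO blood 1 gave 2 higher and 37 lower (background 26% and 20.5%), leaving out tMCAO blood 2 gave 5 and 3 (18.7% and 16.7%), and leaving out a sham blood or brain library gave 0 and 0 (9.6% to 15.9% and 5.88% to 8.9%). At an unadjusted p under 0.05 the edgeR test gave 6 members (background 45.8%). The median log2 difference over the members was -0.27, with 20 of 78 above 0, beside 0.05 over all tested genes, and it was 0.05 over the members without tMCAO blood 2. Both brain libraries lay above both tMCAO blood libraries in 7 members and below in 14, where the background was 37.6% and 30.9%.

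Atp5h encodes subunit d of the peripheral stalk of the ATP synthase. It stood at 409 and 360 in sham blood, 382 and 744 in tMCAO blood and 243 and 231 CPM in brain. Brain was lowest in both libraries, and the 3 blood libraries other than tMCAO blood 2 were alike. Its log2 difference between brain and tMCAO blood was -1.25 ± 0.35 (SE, n = 2 per group, adjusted p of 0.0324 by edgeR's quasi-likelihood test). With scaling to the T cell genes, under which the median of all tested genes was 7.37, the difference was 6.08, so the sign turned while Atp5h stayed below that median. Without tMCAO blood 2 the difference was -0.77 (adjusted p of 0.0215 by the same test), and without sham blood 1 or 2 or brain 1 or 2 the call was lost at adjusted p of 0.0740 to 0.140 (edgeR). A pseudogene elsewhere in the genome is near-identical to 71.1% of the Atp5h transcript. Some of its reads may therefore be among those listed as not placed uniquely, which the count table holds apart from the genes.

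Ndufb11 is an X-linked accessory subunit of the membrane arm of complex I. It was at 132 and 128 in sham blood, 130 and 254 in tMCAO blood and 90.9 and 87.4 CPM in brain, with brain lowest and tMCAO blood 2 highest. The log2 difference between brain and tMCAO blood was -1.10 ± 0.35 (SE, n = 2 per group, adjusted p of 0.0452 by edgeR's quasi-likelihood test), and -0.62 without tMCAO blood 2 (adjusted p of 0.0336 by the same test). It was 6.22 with scaling to the T cell genes, again below the median of all tested genes. Without sham blood 1 or 2 or brain 1 or 2 the call was lost at adjusted p of 0.0993 to 0.174 (edgeR). Its exons share 117 bases with Rbm10 on the opposite strand, which was at 19.8 and 19.7 CPM in tMCAO blood and 12.9 and 10.2 CPM in brain. Ndufs4, an accessory subunit at the NADH-oxidizing arm, was next in order, at 121 and 175 CPM in tMCAO blood and 89.0 and 94.4 CPM in brain (log2 difference -0.69, adjusted p of 0.0893 by the edgeR test).

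In 4 complex IV families a form known from particular tissues had counts beside a broadly expressed partner, and in all 4 the partner made up nearly the whole level per length. Cox6a2, the heart and skeletal muscle form of subunit 6A (chr7:128205435-128206387, GRCm38), was at 0.204 and 0.513 in sham blood, 0.155 and 0.643 in tMCAO blood and 3.69 and 7.23 CPM in brain, from 3 to 11 counts in each blood library and 40 and 79 in brain. Both brain libraries lay above all blood libraries. Cox6a2 passed the count filter only through its brain counts, so its rise in brain was favoured by that choice and is a description. The log2 difference was 3.90 ± 1.08 (SE, n = 2 per group) against sham blood and 3.76 ± 1.08 against tMCAO blood, with adjusted p of 0.0331 and 0.0339 by edgeR's quasi-likelihood test. Without either sham or either brain library the adjusted p was 0.0546 to 0.252 (edgeR), and without tMCAO blood 1 that against tMCAO blood was 0.0638 at a log2 difference of 3.06. Its exons share 70 bases with Itgad on the opposite strand, which moved the other way, from 1.02 and 1.39 CPM in sham blood to 0.0921 and 0 CPM in brain.

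Its broadly expressed partner Cox6a1 was at 322 and 297 in sham blood, 289 and 567 in tMCAO blood and 366 and 325 CPM in brain. Per length, Cox6a2 made up 0.0451% to 0.145% of the pair in blood and 0.839% and 1.83% in brain. The rise was thus in a form that stayed under 2% of the pair in every library.

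Cox7a1, the heart and muscle form of subunit 7A (chr7:30184144-30186078), was at 0.255 and 0.565 in sham blood, 0.207 and 0.409 in tMCAO blood and 3.87 and 2.84 CPM in brain. Brain was above blood without overlap. Cox7a1 too passed the count filter only through its brain counts, so its rise is likewise a description. The log2 difference was 3.42 ± 1.03 (SE, n = 2 per group) against tMCAO blood (adjusted p of 0.0398 by edgeR's quasi-likelihood test) and 3.01 ± 1.00 against sham blood (adjusted p of 0.0585 by the same test). The call was lost on leaving out any 1 of the 6 libraries, at adjusted p of 0.0685 to 0.243 (edgeR). Its partner Cox7a2 was at 175 and 174, 147 and 282, and 213 and 182 CPM in the same order, and Cox7a1 rose from 0.235% to 0.541% of the pair per length in blood to 2.96% and 2.55% in brain. The third relative, Cox7a2l, which takes part in joining complexes III and IV into supercomplexes, was level at 139 and 149, 152 and 216, and 136 and 160 CPM. Capns1, which lies 857 bases from Cox7a1, was also higher in brain, at 113 and 78.9 CPM against 24.9 and 27.3 CPM in sham blood.

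Cox4i2, the lung and oxygen-responsive form of subunit 4 (chr2:152754173-152765037), had 0 counts in the 4 blood libraries and 12 and 6 in brain. It did not reach the count filter and was not tested. The 18 summed brain counts correspond to 0.826 CPM (exact Poisson 95% interval 0.490 to 1.31, counting error only). Brain 1 alone brought it over the count minimum for members, so its difference from blood was fixed by that choice and is a description. Cox6b2, the testis form of subunit 6B (chr7:4751792-4753094), did not pass the test, at 0.102 and 0.667 in sham blood, 1.14 and 0.234 in tMCAO blood and 3.69 and 1.46 CPM in brain (log2 difference from sham blood 2.72, adjusted p of 0.165, and from tMCAO blood 1.89, adjusted p of 0.292, by edgeR's quasi-likelihood test). Both brain values were above the highest blood value, but the 2 blood groups each spread over several-fold. Its partner Cox6b1 was at 225 and 214 in sham blood and 380 and 317 CPM in brain.

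**Figure D5:**
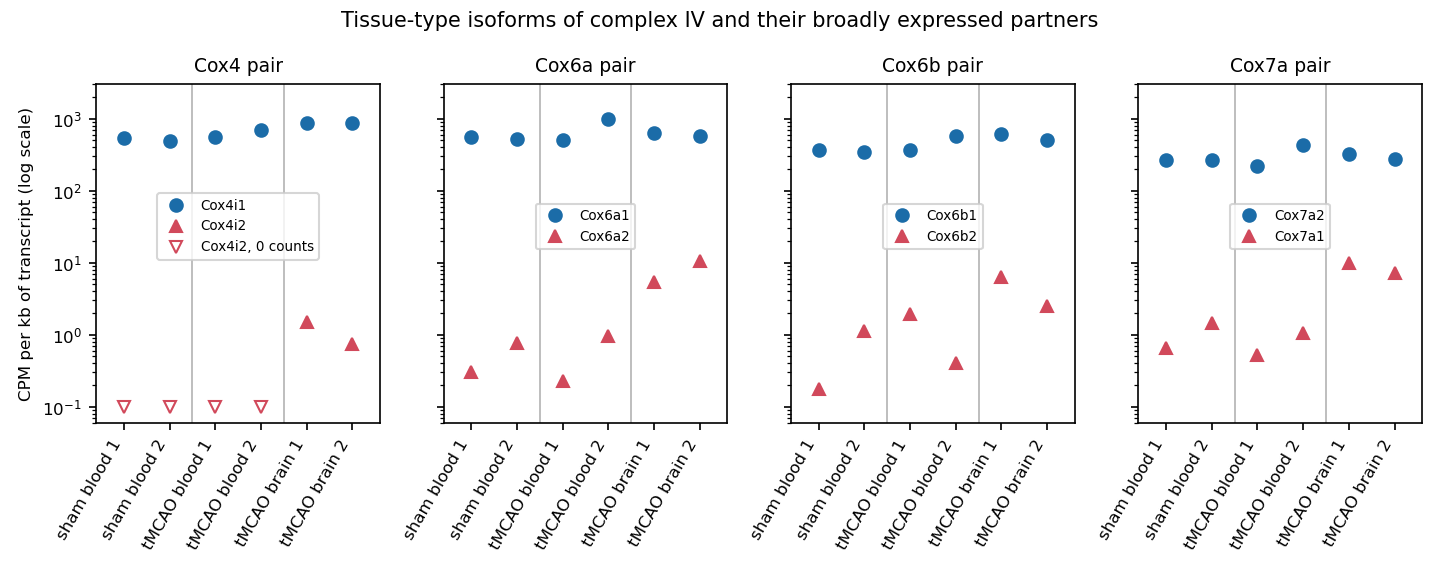
CPM per kilobase of transcript on a log axis for 4 isoform pairs of complex IV in the 6 libraries, with circles for the broadly expressed form, triangles for the tissue-type form and open triangles at the bottom for 0 counts. The circles stay between 224 and 993, while Cox6a2 and Cox7a1 lie at 0.228 to 1.44 in blood and at 5.42 to 10.6 in brain.

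Other tissue forms were not seen. The testis form Cox7b2, the heart and muscle form Cox8b and the testis form Cox8c had 0 counts in each library, so none of them could be told from 0 at this depth, while Cox7b stood at 168 to 287 CPM and Cox8a at 266 to 374 CPM. Ndufa4l2, a hypoxia-induced relative of Ndufa4, had 1 count in each sham library and 0 elsewhere. Ndufa4 itself was at 380 and 355 in sham blood, 309 and 598 in tMCAO blood and 318 and 276 CPM in brain. A further relative outside the name rule, AA467197 (also known as Nmes1), was near 0 in blood, with 0 to 19 counts in each blood library, and had 241 and 234 counts in brain, a log2 difference from sham blood of 7.08 (adjusted p of 0.003 by edgeR's quasi-likelihood test). The 3 genes for subunit c of the ATP synthase, which encode the same mature protein behind different targeting sequences, differed in how they were spread. Atp5g3 led, at 459 and 433 in sham blood, 424 and 462 in tMCAO blood and 430 and 377 CPM in brain. Atp5g1 was at 183 and 194 in sham blood, 179 and 381 in tMCAO blood and 329 and 256 CPM in brain, and Atp5g2 at 92.4 and 87.1, 84.0 and 73.3, and 114 and 113 CPM. A copy of Atp5g2 elsewhere in the genome is near-identical to 88.2% of its transcript, and none of the 3 genes passed the test.

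Promoter sequence was available from RefSeq (GRCm38.p6, 250 bases before to 50 after the start) for 66 of the 79 members, among them both subunit 7A forms but not Cox6a2, Cox4i2 or Sdhc. The pair is shown because the muscle form was called higher in brain against tMCAO blood and the broad form was not. The Cox7a1 window (chr7:30183921-30184220, plus strand) holds 7 CpG and 53% G and C, and the Cox7a2 window (chr9:79759804-79760103, minus strand) 20 CpG and 56.7%. The build of all coordinates is GRCm38. Capitals mark a match to the ACGTG form of the hypoxia response element core, read on the opposite strand. Of the motifs searched it was the only one found in either window. The form GCGTG was not searched, and its letters occur in both windows, so the windows are not contrasted by this core.
Cox7a1: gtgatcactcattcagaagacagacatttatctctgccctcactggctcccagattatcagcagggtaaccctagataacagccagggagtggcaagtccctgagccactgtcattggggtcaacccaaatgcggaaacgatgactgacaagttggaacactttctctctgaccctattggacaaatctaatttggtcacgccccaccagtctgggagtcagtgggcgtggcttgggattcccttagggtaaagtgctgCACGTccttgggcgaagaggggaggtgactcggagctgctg
Cox7a2: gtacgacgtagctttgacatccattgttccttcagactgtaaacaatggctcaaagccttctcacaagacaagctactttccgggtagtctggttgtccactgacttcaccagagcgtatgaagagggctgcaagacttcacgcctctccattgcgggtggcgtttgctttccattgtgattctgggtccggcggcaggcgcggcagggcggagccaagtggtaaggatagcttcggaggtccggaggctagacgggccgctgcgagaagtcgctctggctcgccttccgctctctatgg

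Across the members, 4 motifs were searched on both strands, none of which contains another. The core of the NRF1 site, GCATGCG, was in 11 of 66 members (16.7%) and in 4.01% of 27025 gene promoters of the same length. The core of the YY1 site, AAGATGG, was in 12 members (18.2% against 7.28%). The ETS core CCGGAAG was in 16 (24.2% against 9.93%) and the ACGTG form of the hypoxia core in 18 (27.3% against 21.8%). NRF1 and the ETS factor GABP are known regulators of nuclear genes for the respiratory chain. The median G and C content of these windows was 57.3% in the members and 52.7% in all genes, and a match is a description of the letters, not a bound site. NRF1 matches were in all 5 complexes, and a single example of each is shown, with the match in capitals. Atp5j, Uqcr11 and Sdhb led their complexes in mean FPKM among members with a value in every library.
Ndufa8 (chr2:36049328-36049357): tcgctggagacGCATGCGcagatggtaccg
Sdhb (chr4:140961206-140961235): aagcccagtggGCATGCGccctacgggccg
Uqcr11 (chr10:80406807-80406836): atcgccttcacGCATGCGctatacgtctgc
Cox6a1 (chr5:115349100-115349129): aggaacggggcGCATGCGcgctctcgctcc
Atp5j (chr16:84835104-84835133): ggccagaatacGCATGCGtacagtgcagtg

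The YY1 matches were in 7 members of complex I, 4 of the ATP synthase series and 1 of complex IV, and in 0 of complexes II and III. In 9 of the 12 the match read along the gene and began 22 to 38 bases after the start site, and that of Atp5j lay before it. The word AAGATGG contains ATG, the letters of a start codon. Whether these 9 matches lie at the start of translation was not tested. Matches are shown for Ndufa3 and Atp5j, which led complex I and the ATP synthase series in the same way, and for 2 further members described above, with the match in capitals.
Ndufa3 (chr7:3617384-3617413): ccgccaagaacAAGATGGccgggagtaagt
Ndufb8 (chr19:44555393-44555415): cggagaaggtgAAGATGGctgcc
Ndufs4 (chr13:114388045-114388070): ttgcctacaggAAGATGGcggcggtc
Atp5j (chr16:84835046-84835075): aaagtgtaggaAAGATGGcggagtcttagc

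Genes with these letters did not share a direction in brain. Ndufb8 and Uqcr11 lay above sham blood in both brain libraries, and Ndufs4 and Atp5j below. Cox6a1, with an NRF1 match, differed by less between groups than between the replicates of tMCAO blood. None of the genes with an NRF1 or YY1 match passed the test in any comparison. Few members passed at all, and Sdhc and Cox6a2 among them had no promoter to search. These calls therefore cannot tell members with a match from those without.

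Genes that act around the chain were taken as lists beside the members. Of 47 tested assembly factors, 0 were higher and 4 were lower in brain than in sham blood at an adjusted p under 0.05 by edgeR's quasi-likelihood test, and 0 and 10 against tMCAO blood. The background was 12.6% and 14.2% lower and 19.2% and 20.9% higher in these comparisons. The 4 lower genes against sham blood were thus a smaller share than among all genes, and the 10 against tMCAO blood a larger share. The list had median log2 differences of -0.23 and -0.48 beside 0.13 and 0.05 over all tested genes. Cox20, a chaperone of complex IV subunit 2, was at 123 and 132 in sham blood, 103 and 188 in tMCAO blood and 41.2 and 40.8 CPM in brain (log2 difference from sham blood -1.63, adjusted p of 0.011 by edgeR). Surf1, a complex IV assembly factor mutated in Leigh syndrome, was at 70.7 and 64.0, 72.3 and 124, and 25.6 and 26.5 CPM (log2 difference -1.37, adjusted p of 0.020 by edgeR). Lyrm7, which chaperones the Rieske protein of complex III, was at 5.40 and 7.65 in sham blood and 0.829 and 1.28 CPM in brain, and Sdhaf2, which attaches flavin to Sdha, was also called. In each of Cox20, Surf1 and Lyrm7, brain was below all blood libraries.

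Among 14 tested regulators of mitochondrial biogenesis, Tfam and Tfb1m, which act in mitochondrial transcription, were lower in brain than in sham blood and Ppard was higher, on the same background of 12.6% lower and 19.2% higher. Tfam was at 84.2 and 112 in sham blood, 75.9 and 132 in tMCAO blood and 21.7 and 32.8 CPM in brain, a log2 difference from sham blood of -1.85 (adjusted p of 0.012 by edgeR's quasi-likelihood test). Tfb1m was at 22.7 and 21.3 in sham blood and 6.27 and 6.40 CPM in brain, and Ppard at 0.102 and 0.154 CPM against 2.58 and 3.11 CPM. Ppard passed the count filter only through its brain counts. Among 17 genes of the citric acid cycle, Idh2, the mitochondrial NADP-dependent isocitrate dehydrogenase, was higher in brain, at 37.9 and 32.9 in sham blood and 197 and 167 CPM in brain (log2 difference 2.36, adjusted p of 0.002 by the edgeR test), and 0 were lower. Idh3a was at 254 and 214 in sham blood and 146 and 116 CPM in brain, and Dlst at 28.0 and 22.6 CPM against 64.0 and 69.8 CPM, both short of the threshold there. Against tMCAO blood, at 262 and 383 CPM, Idh3a was called lower (log2 difference -1.30, adjusted p of 0.0152 by the edgeR test) and Idh2 higher. Of 14 carriers and channels of the mitochondrial membranes 0 passed against sham blood, and against tMCAO blood Vdac1 was called higher and Slc25a4 lower (background 20.9% and 14.2%). The 3 with the smallest p were Vdac2, at 232 and 229 in sham blood and 426 and 476 CPM in brain, Slc25a4, at 297 and 298 CPM against 137 and 196 CPM, and Vdac1, at 76.3 and 63.0 CPM against 128 and 108 CPM. None of the genes on these lists passed the test between tMCAO blood and sham blood.

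Of 6 tested genes of the chain that the name rule did not take, Atpif1, which inhibits the hydrolysis of ATP by the ATP synthase, was higher in brain than in sham blood, at 77.6 and 77.6 in sham blood, 123 and 164 in tMCAO blood and 278 and 261 CPM in brain (log2 difference 1.80, adjusted p of 0.003 by edgeR's quasi-likelihood test). The other 5 were not called. Cycs, which encodes cytochrome c, was at 760 and 732, 369 and 915, and 591 and 455 CPM in the same order, and 2010107E04Rik was at 134 and 119 in sham blood and 215 and 174 CPM in brain. Atp5s stood at 19.6 and 28.2 in sham blood and 14.1 and 14.3 CPM in brain, and Atp5sl at 32.8 and 29.1 CPM against 15.02 and 20.2 CPM, without passing the test.

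Reads of some members could be shared with other loci. A near-identical copy (at least 97% identity over at least 75 bases) lies elsewhere in the annotation for 16 of the 79 members, and for 6 it covers over 50% of the transcript: Atp5g2, Ndufs3, Atp5h, Uqcrb, Cox7c and Atp5l. The exons of 28 members overlap another gene, of which 24 on the opposite strand. Ndufs5, a subunit of complex I that was dropped for its low counts, had 1 count in sham blood 1 and 0 in the other 5 libraries, although the FPKM table lists a line that joins it with BC002163 at 201 to 326 FPKM. BC002163 was at 2.02 to 6.37 CPM, and 46.9% of the Ndufs5 transcript has a near-identical copy elsewhere.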

How the data were processed

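CD8+ TRLs sorted from blood or brain were profiled by bulk RNA sequencing from SMART-Seq cDNA and Nextera XT libraries, read as paired ends on a NextSeq 500. The submitters' processing notes name TopHat, FastQC, Cufflinks 2.2.1 and GRCm38 (mm10). The deposited counts per gene were made by the authors from aligned reads without normalization, and no source used here names the annotation or the strand setting. The deposited FPKM values were made by the authors per transcript length and library size, and served to compare levels between genes and as an alternative. Of 24572 FPKM lines, 1854 had a missing value and 1177 joined several symbols.

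The 5 lines of the count table that name no gene stayed out. Reads with no feature equalled 43.0% to 45.6% of all reads listed and reads not placed uniquely 14.0% to 22.0%. Another 27 lines hold a date in place of a symbol and were not named. Gene counts per library were 13793081 to 17149924. Intervals and floors cover counting error only.

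Counts were tested in R 4.3.3 with edgeR 4.0.16 (filterByExpr with a minimum of 10 and a total of 15, TMM, quasi-likelihood test, 1 mean per group over 6 libraries, 3 residual degrees of freedom). TMM factors ran from 0.780 to 1.21. P-values were adjusted by the Benjamini-Hochberg method over 12424 genes, and the threshold was 0.05. CPM are counts over the TMM-scaled library size. Alternatives were DESeq2 1.42.0, the study's tool, limma 3.58.1 on log2(FPKM + pseudocount), other scalings and filters, a replicate block, a stricter call and leaving out each library. The edgeR test of each comparison was first tested on simulated data.

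Transcript lengths, overlaps and copies came from GENCODE M21 (GRCm38) with BLAST 2.17.0, and promoters from RefSeq. The members and lists were chosen with earlier results of these data known. Named were the tissue-type isoforms, the called members or the 4 with the smallest p in a comparison, the member with the highest FPKM of each complex and up to 3 genes of each other list by smallest p in brain against sham blood. Other genes were named after their values were seen. The values of 1 member are not reported here.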

Additional observations from a re-analysis of the deposited data

How the results depend on the processing

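Counts of members called are given as higher and lower at an adjusted p under 0.05. Between tMCAO blood and sham blood the count was 0 and 0 under every alternative except leaving out a library, where the higher calls ran from 0 to 28 (28 without tMCAO blood 1, where 2.85% of all genes were called higher) and the lower calls stayed at 0.

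Against sham blood, brain had 2 higher and 0 lower in edgeR's quasi-likelihood test. With a fold over 2 as well the counts were 1 and 0, and at an adjusted p under 0.01 they were 0 and 0. DESeq2 gave 5 and 0 on all samples and 13 and 6 on the 2 groups alone, and edgeR on the 2 groups gave 10 and 4. Library size alone gave 1 and 14, beside 13.2% and 23.7% of all genes, and scaling to the T cell genes 78 and 0, beside 95.1% and 0.113%. The 2 fits on 2 groups called 22.4% and 18.3% (DESeq2) and 27% and 23.6% (edgeR) of all genes. With limma on FPKM the counts of 72 members were 3 and 7 at a pseudocount of 1, 2 and 5 at 0.1, and 1 and 2 with no filter, beside 16.2% and 21.5%, 14.7% and 21.3%, and 11.6% and 12% of all genes. Leaving out a library gave 0 to 13 higher and 0 to 4 lower.

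Against tMCAO blood, brain had 3 higher and 2 lower. With a fold over 2 the counts were 2 and 2, at an adjusted p under 0.01 0 and 0, with DESeq2 on all samples 3 and 2, with DESeq2 on the 2 groups 2 and 1 and with edgeR on the 2 groups 2 and 0. Library size alone gave 1 and 34 (15.9% and 25.6% of all genes), RLE factors 3 and 1 (21% and 13.9%), and the T cell genes 78 and 0 (95.4% and 0.0724%). No filter gave 1 and 2. A filter at 50 counts in 2 libraries also gave 1 and 2, of 75 members, and Cox6a2 and Cox7a1 did not reach it and were not tested there. With limma on FPKM the counts were 2 and 15, 1 and 15, and 2 and 9 in the order above, beside 17% and 23.3%, 16.3% and 23.4%, and 12.5% and 12.9%. Leaving out a library gave 0 to 5 higher and 0 to 37 lower, the 37 without tMCAO blood 1, where 20.5% of all genes were called lower. Without any 1 sham blood or brain library 0 members were called in either direction in all 3 comparisons, and the lone library of a group was assumed to vary like the others.

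Scaling to the T cell genes turned the sign of Atp5h (6.08), Ndufb11 (6.22) and Ndufs4 (6.65) in brain against tMCAO blood, on the log2 scale, where the median of all genes moved from 0.05 to 7.37.

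With the replicate number as a block, brain had 1 higher and 0 lower against sham blood, 1 higher and 0 lower against tMCAO blood, and tMCAO blood had 0 and 0 against sham blood. Deviations of same-numbered libraries correlated at -0.02, -0.03 and 0.03 over genes. With a single deviation per group, this cannot show whether same-numbered libraries came from the same mice.

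Each group had 2 libraries, and most members had over 50 CPM. Replicates of tMCAO blood differed most over the members, with an SD of the log2 ratio of 0.584. This SD was 0.262 for brain and 0.285 for sham blood. In each group it was below the SD over all tested genes. Whether depth or the spread between replicates limited the calls was not tested. Cox6a2, Cox7a1 and Cox4i2 rested on few counts in blood. Cox6a2 and Cox7a1 were tested only because of their brain counts.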
